A study of Mus musculus with 12 samples.

Results

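Globin and erythroid transcripts were followed in 12 bulk RNA libraries of newborn mouse thalamus. The set holds 9 of the 55359 genes in the count tables, taken by Ensembl identifier. It consists of the adult alpha globins Hba-a1 and Hba-a2, the adult beta globins Hbb-bs and Hbb-bt, the embryonic globins Hba-x, Hbb-bh1 and Hbb-y, and the erythroid genes Alas2 and Slc4a1. The tissue came from the ventroposterior medial nucleus at postnatal day 0. The ALBSF territory of this nucleus receives input from the upper lip, and the PMBSF territory receives input from the whisker pad. The groups were embWPC ALBSF, Ctrl PMBSF and Ctrl ALBSF, with 4 libraries each. The labels do not spell out the treatment embWPC and name no strain or sex, so no more can be said of it here. Every group shares the age, the nucleus and the dissection. Each library is a pool of 5 brains cut into 300 µm sections, so p-values measure the spread between pools. Rinsing blood out of the vessels is not mentioned in the sources used here.

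Haemoglobin is a tetramer of alpha-type and beta-type globin chains, each of which holds a heme group. In the mouse, the first red cells arise in the yolk sac and make embryonic chains, and later red cells from the fetal liver and bone marrow make the adult chains. The embryonic and adult genes of each type lie in 1 cluster. Young red cells still carry globin mRNA after they lose the nucleus, so blood left in a tissue adds globin transcripts to its RNA, and some neurons of rodents have also been described to hold adult globin transcripts. In bulk tissue, fewer cells of a type and less RNA per cell cannot be told apart.

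Both globin clusters are annotated in the genome build of the count tables, GRCm39. On chromosome 11, Hba-x lies at chr11:32226400-32228116, Hba-a1 at chr11:32233186-32234504 and Hba-a2 at chr11:32246168-32247320, all on the plus strand. On chromosome 7, on the minus strand, Hbb-y lies at chr7:103500956-103502423, Hbb-bh1 at chr7:103490844-103492371, Hbb-bs at chr7:103475730-103482989 and Hbb-bt at chr7:103461727-103465047. Each of the 7 globin genes has 3 exons in its canonical transcript. Alas2, the first enzyme of heme synthesis in red cells, lies on the X chromosome at chrX:149330371-149353634. Slc4a1, the anion exchanger band 3 of the red cell membrane, lies at chr11:102239650-102257029.

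The adult genes of each cluster are near copies, which bears on how reads were split between them. The coding sequences of Hba-a1 and Hba-a2, 426 bases without the stop codon, differ at 1 base. This is the substitution C381T in exon 3, with positions counted from the A of the start codon and the Hba-a1 base first. Those of Hbb-bs and Hbb-bt, 441 bases, also differ at 1 base of exon 3, C417T, with the Hbb-bs base first. Hbb-bh1 differs from Hbb-bs at 115 of 441 coding bases, and the longest run the pair shares is 22 bases. The coding parts of exon 3 are shown because they hold these differences. The capital in the first 4 lines marks the base at which the copies differ, and the capitals of Hbb-bh1 mark its 32 differences from Hbb-bs.
Hba-a1, chr11:32234263-32234388, plus strand: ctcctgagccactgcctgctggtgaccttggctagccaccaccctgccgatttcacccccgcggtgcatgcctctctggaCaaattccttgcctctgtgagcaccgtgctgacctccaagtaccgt
Hba-a2, chr11:32247080-32247205, plus strand: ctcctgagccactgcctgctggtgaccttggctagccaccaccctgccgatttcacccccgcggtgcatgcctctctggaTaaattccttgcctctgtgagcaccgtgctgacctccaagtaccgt
Hbb-bs, chr7:103475875-103476000, minus strand: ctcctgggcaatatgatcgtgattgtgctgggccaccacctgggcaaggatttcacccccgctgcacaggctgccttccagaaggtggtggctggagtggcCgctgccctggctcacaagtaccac
Hbb-bt, chr7:103461866-103461991, minus strand: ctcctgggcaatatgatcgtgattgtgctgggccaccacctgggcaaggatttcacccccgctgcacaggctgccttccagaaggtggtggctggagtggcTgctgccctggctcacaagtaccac
Hbb-bh1, chr7:103490962-103491087, minus strand: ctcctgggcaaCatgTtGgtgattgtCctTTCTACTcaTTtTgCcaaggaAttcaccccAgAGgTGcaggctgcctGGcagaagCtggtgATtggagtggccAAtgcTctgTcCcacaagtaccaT

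Reads were 150 bases long and paired. Of all windows of 150 bases in the canonical transcript, 60.951% of those of Hba-a1 occurred unchanged in Hba-a2, and 54.563% of those of Hbb-bs occurred unchanged in Hbb-bt. None of the windows of 50 bases in Hba-x, Hbb-bh1 or Hbb-y occurred in another of the 7 globin transcripts. How reads that align to several places were treated is not stated, so the split between Hba-a1 and Hba-a2 and between Hbb-bs and Hbb-bt is uncertain, while the embryonic genes have sequence of their own. The annotation holds the pair Hbb-bs and Hbb-bt of 1 haplotype, and mouse strains differ in this pair. Strand use in counting is not stated either. Exon 11 of Alas2 lies over all of its 311 bases on an exon of Apex2, a DNA repair gene on the opposite strand that had 8.17 to 12.95 CPM (counts scaled to the library total) in these libraries. Without strand, the reads of that exon cannot be assigned to either gene.

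Library totals ran from 28457046 to 34512840 counts. Relay neuron markers of the thalamus were present in every library, with 10 genes summing to 2429.5 to 3027 CPM. Of these, Tcf7l2 and Foxp2 fell and Rora rose in Ctrl PMBSF against Ctrl ALBSF, by the test given next. Their adjusted p values were 0.0301, 0.00665 and 0.0436 by edgeR, in a fit that called 1.62% of all genes. In embWPC ALBSF against Ctrl ALBSF, Rora had a log2 difference of 0.42, with an adjusted p of 0.101 by edgeR. The alternative tests DESeq2 and voom called Rora there, beside 1.03% and 0.446% of all genes. Of the 9 members, 6 passed the filter on low counts and were tested among 17501 genes. Hba-x, Hbb-y and Slc4a1 did not pass and are described by their counts only. In each contrast, edgeR's quasi-likelihood test was used with Benjamini-Hochberg adjustment over all genes tested, an adjusted p under 0.05 made a call, and differences are on the log2 scale with their standard error (SE).

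The adult globins dominated the set. Per kilobase of transcript, Hba-a1 had 291 to 1087 CPM per kb over the 12 libraries and Hbb-bs had 249.3 to 729.8. Hbb-bt followed with 17.0 to 47.2 CPM per kb, and Hba-a2 was listed at 0.340 to 1.63. Alas2 had 2.45 to 5.76 CPM per kb, close to Hbb-bh1, which had 0.0945 to 4.05. Slc4a1, Hba-x and Hbb-y lay lowest, with at most 0.101, 0.181 and 0.222 CPM per kb. The levels of Alas2 and Hbb-bh1 overlapped over the libraries, as did those of Hba-a1 and Hbb-bs.

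**Figure D1:**
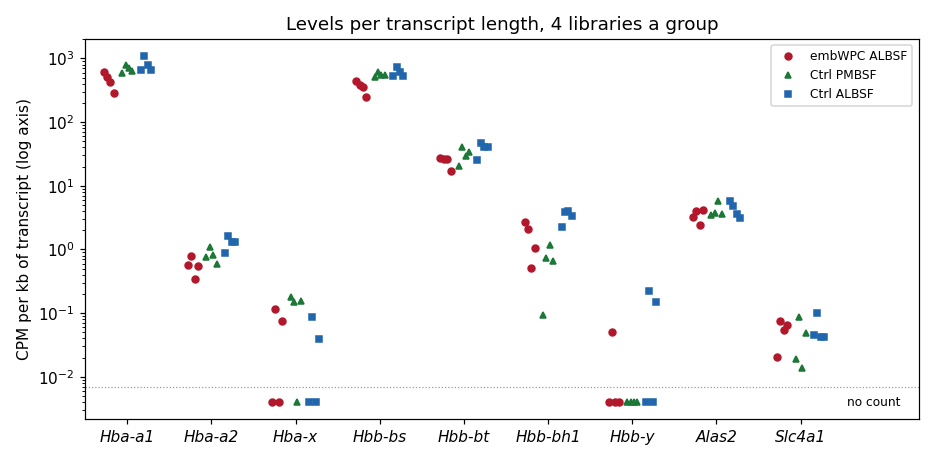
Levels of the 9 genes in CPM per kilobase of canonical transcript, on a log axis, with 4 libraries in each of the groups embWPC ALBSF, Ctrl PMBSF and Ctrl ALBSF; points under the dotted line had no count. Hba-a1 and Hbb-bs lie between 249.3 and 1087 CPM per kb, while Hba-x and Hbb-y stay at or under 0.222.

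Summed adult globins were lower in CPM in embWPC ALBSF than in both control groups in these pools. The differences of the single genes were not called by edgeR. The summed adult globins had 769, 651, 569 and 393 CPM in embWPC ALBSF, against 791, 1010.1, 912 and 864 CPM in Ctrl PMBSF and 857, 1321, 1021 and 867 CPM in Ctrl ALBSF. In CPM, every embWPC ALBSF library lay under every control library, and the control groups overlapped. Each Ctrl PMBSF library lay under the Ctrl ALBSF library of the same replicate number, the closest at 864 against 867 CPM. CPM leaves out the scaling factors (TMM) of the edgeR fit. These were 0.9141 for embWPC ALBSF replicate 1, 1.074 for Ctrl PMBSF replicate 1 and 1.028 for Ctrl ALBSF replicate 1. With these factors, embWPC ALBSF replicate 1 exceeds both of those control libraries. The summed adult globins of embWPC ALBSF then overlap both control groups. The summed adult globins averaged 595 ± 158 CPM in embWPC ALBSF, 894 ± 92.0 CPM in Ctrl PMBSF and 1017 ± 216 CPM in Ctrl ALBSF (SD, n = 4 each). Over all libraries the 4 adult globins took 0.0393 to 0.132% of the counts.

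Hba-a1, which encodes the alpha chain of adult haemoglobin, had 457, 374, 311 and 215 CPM in embWPC ALBSF, against 492, 802, 584 and 481 CPM in Ctrl ALBSF. In CPM the groups did not overlap, and all 4 embWPC ALBSF libraries were lower. With the scaling factors of the fit, 0.9141 for embWPC ALBSF replicate 1 and 1.028 for Ctrl ALBSF replicate 1, the groups overlap. The difference was -0.79 ± 0.24 (SE), with an adjusted p of 0.274 by edgeR. In Ctrl PMBSF, Hba-a1 had 441, 581, 526 and 473 CPM, a range that embWPC ALBSF entered with its highest library. The difference of embWPC ALBSF from Ctrl PMBSF was -0.48 ± 0.24, with an adjusted p of 0.538 by edgeR.

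Hbb-bs, the main adult beta chain in these counts, had 292, 257, 240.0 and 166 CPM in embWPC ALBSF. It had 335, 400, 365 and 366 CPM in Ctrl PMBSF and 347, 485, 408 and 357 CPM in Ctrl ALBSF. In CPM, all 4 embWPC ALBSF libraries lay under all 8 control libraries. With the scaling factors of the fit, embWPC ALBSF replicate 1 exceeds Ctrl PMBSF replicate 1, while every Ctrl ALBSF library stays higher than embWPC ALBSF. The difference was -0.74 ± 0.19 against Ctrl ALBSF and -0.53 ± 0.19 against Ctrl PMBSF, with adjusted p values of 0.168 and 0.422 by edgeR. DESeq2 gave an adjusted p of 0.0133 for the contrast with Ctrl ALBSF, and edgeR without the filter on low counts gave 0.00566. Both contrasts use the same 4 embWPC ALBSF libraries, so they share the noise of those pools.

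Hbb-bt, the minor adult beta chain in these counts, had 19.2, 18.5, 18.5 and 11.96 CPM in embWPC ALBSF, against 18.2, 33.2, 28.4 and 28.4 CPM in Ctrl ALBSF. These groups overlapped through 1 Ctrl ALBSF library, and the difference was -0.68 ± 0.25, with an adjusted p of 0.417 by edgeR. Hba-a2 rested on few reads, with 12, 16, 7 and 12 counts in embWPC ALBSF, against 17, 30, 27 and 27 counts in Ctrl ALBSF. All 4 embWPC ALBSF libraries were lower for Hba-a2, and the difference was -1.23 ± 0.33, with an adjusted p of 0.206 by edgeR. Against Ctrl PMBSF, Hbb-bt had -0.29 ± 0.25 and Hba-a2 had -0.48 ± 0.34, and the groups overlapped for both. The adjusted p values there were 0.741 and 0.676 by edgeR. The counts of Hba-a2 may include or lack reads of Hba-a1, as given above.

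In the contrast of embWPC ALBSF with Ctrl ALBSF, edgeR called 0 of the 6 members tested, against 0.0629% of all genes called. At an unadjusted p under 0.05 there were 5 of 6 members, against 9.22% of all genes. DESeq2 called 1 member, Hbb-bs, against 1.03% of all genes, voom called 0 against 0.446%, and edgeR without the filter called 2, Hba-a1 and Hbb-bs, against 0.35%. All 6 had values below 0, beside 52.5% of all genes, with a median of -0.77 beside -0.01 over all genes tested. The adult globins varied together over the libraries, so the 6 are not independent of each other. In CPM the groups did not overlap, with embWPC ALBSF lower, for Hba-a1, Hba-a2 and Hbb-bs. The share of all genes with this pattern in CPM was 1.93%. Hba-a1 loses the pattern with the scaling factors of the fit. With library totals in place of scaling factors, the called genes split into 3 higher and 4 lower, beside 3 and 8. In the contrast of embWPC ALBSF with Ctrl PMBSF, edgeR, DESeq2 and voom called 0 of the 6, with 2 at an unadjusted p under 0.05, Hbb-bs and Hbb-bh1. The shares of all genes were 0.00571% called by edgeR, 0.423% by DESeq2 and 0.00571% by voom, and 9.47% at an unadjusted p under 0.05. In CPM, only Hbb-bs of the 6 had groups that did not overlap there, against 4.17% of all genes lower in embWPC ALBSF. With the scaling factors of the fit, its groups overlap too.

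**Figure D2:**
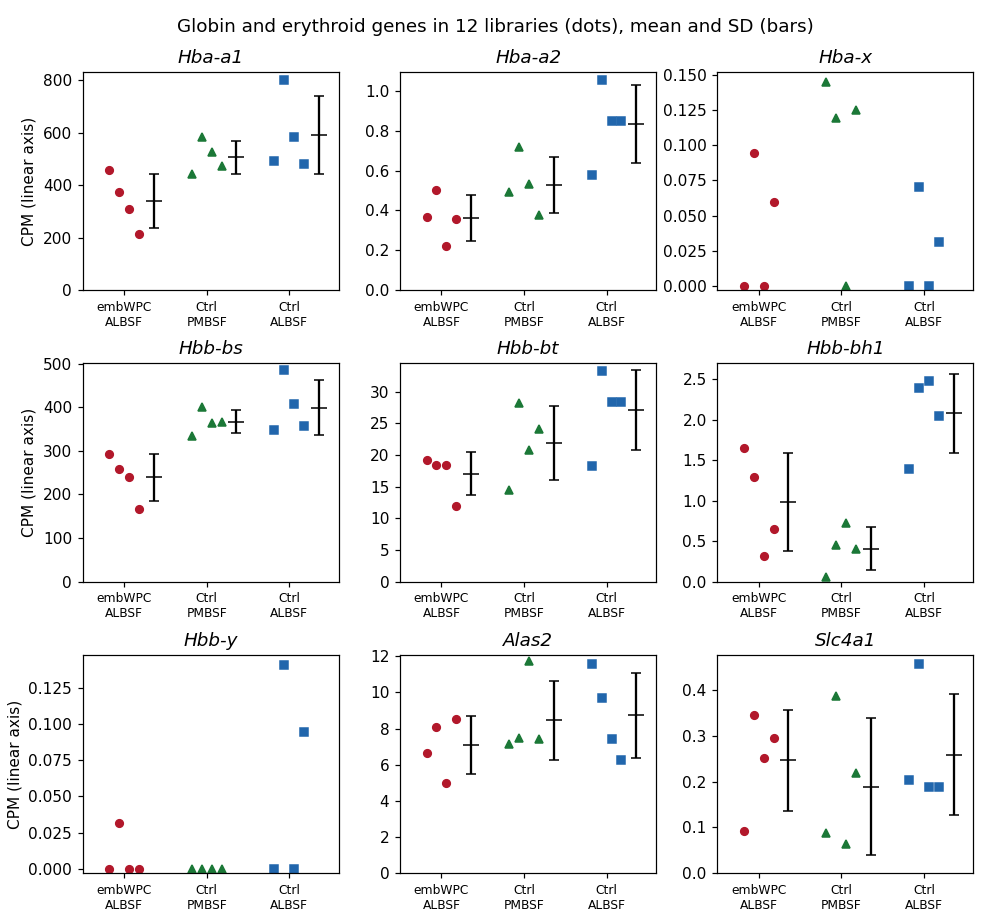
CPM of each of the 9 genes in each library (points, linear axes), in embWPC ALBSF, Ctrl PMBSF and Ctrl ALBSF; the bars give the mean and SD of 4 libraries and are left out for Hba-x and Hbb-y, which had libraries with no count. For Hbb-bs all embWPC ALBSF points, 166 to 292 CPM, lie under the control points, and for Hbb-bh1 all Ctrl PMBSF points, 0.0579 to 0.720 CPM, lie under the Ctrl ALBSF points.

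The balance between adult chains overlapped among the groups. The ratio of adult alpha to adult beta counts was 1.31 ± 0.127 in embWPC ALBSF, 1.30 ± 0.0751 in Ctrl PMBSF and 1.37 ± 0.127 in Ctrl ALBSF (SD, n = 4 each). Over the 12 libraries it ran from 1.20 to 1.55. Hbb-bt made up 6.68 ± 0.412% of adult beta counts in embWPC ALBSF, 5.57 ± 1.08% in Ctrl PMBSF and 6.32 ± 0.990% in Ctrl ALBSF. Hba-a2 made up 0.0707 to 0.177% of adult alpha counts over the 12 libraries. These shares depend on the split of reads between the copies.

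The bases just before the start of Hba-a1 and Hbb-bs, whose levels were highest and were both lower in embWPC ALBSF, are shown from RefSeq, build GRCm38.p6. RefSeq's table held a start for 7 of the 9 members, and those of Hbb-bh1 and Slc4a1 were not in it. Capitals mark letters searched on either strand, which are CACCC for the KLF family, CCAAT for the factors named after it, GATAA for the GATA factors and TATAA for the TATA box. The letters searched do not overlap each other in these windows.
Hba-a1, chr11:32283422-32283671, plus strand: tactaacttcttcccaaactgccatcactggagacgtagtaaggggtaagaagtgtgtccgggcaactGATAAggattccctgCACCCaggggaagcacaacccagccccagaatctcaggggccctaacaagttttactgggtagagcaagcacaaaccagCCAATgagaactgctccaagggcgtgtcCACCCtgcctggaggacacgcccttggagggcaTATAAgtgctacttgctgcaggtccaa
Hbb-bs, chr7:103827929-103828178, minus strand: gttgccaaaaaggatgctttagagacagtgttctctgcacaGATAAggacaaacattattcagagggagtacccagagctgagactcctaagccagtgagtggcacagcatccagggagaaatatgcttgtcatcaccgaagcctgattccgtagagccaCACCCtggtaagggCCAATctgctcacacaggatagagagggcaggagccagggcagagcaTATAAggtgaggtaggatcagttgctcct
Both windows of 250 bases held all 4 motifs. Of 32536 such windows in the table, 52.139% held CACCC, 33.809% CCAAT, 22.495% GATAA and 22.723% TATAA. The Hba-a1 and Hba-a2 windows share a run of 247 identical bases. Hba-a2 was listed at 0.340 to 1.63 CPM per kb, beside 291 to 1087 for Hba-a1. The split of reads between these copies is uncertain, so their listed levels cannot be set against their windows. CCAAT was not found in the windows of Hba-x and Alas2, and TATAA was not found in that of Hbb-y. A match of letters is a description and not a site of binding.

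Hbb-bh1, an embryonic beta-type chain of the first red cells, was the member called between the territories. It fell in Ctrl PMBSF, where it had 0.0579, 0.448, 0.720 and 0.407 CPM, against 1.39, 2.39, 2.48 and 2.05 CPM in Ctrl ALBSF. All 4 Ctrl PMBSF libraries lay under all 4 Ctrl ALBSF libraries. The counts behind these levels were 2, 15, 23 and 13 in Ctrl PMBSF, against 41, 68, 79 and 65 in Ctrl ALBSF. The difference was -2.46 ± 0.54, a level 5.49-fold lower, with an adjusted p of 0.0351 by edgeR. DESeq2 gave an adjusted p of 0.000314 and voom gave 0.0166. With the replicate number as a block, which pairs the control pools of both territories, the difference was -2.54, with an adjusted p of 0.000853 by edgeR.

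In the unpaired edgeR fit, the call of Hbb-bh1 depended on which pool was left out, and it was kept in 2 of 8 fits with 1 pool fewer. The fit with the replicate block was not repeated with pools left out. By edgeR the adjusted p of Hbb-bh1 was 0.0577, 0.0837 and 0.0808 without Ctrl PMBSF replicates 1, 2 and 4, and 0.0949, 0.121 and 0.0821 without Ctrl ALBSF replicates 2, 3 and 4. It was 0.0442 without Ctrl PMBSF replicate 3 and 0.0333 without Ctrl ALBSF replicate 1. The difference stayed between -2.82 and -2.09 in these 8 fits.

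The embWPC ALBSF pools lay between the control groups for Hbb-bh1 and were spread widely, with 1.65, 1.29, 0.314 and 0.653 CPM. They overlapped both Ctrl PMBSF and Ctrl ALBSF. The mean was 0.979 ± 0.607 CPM in embWPC ALBSF, 0.408 ± 0.272 CPM in Ctrl PMBSF and 2.08 ± 0.493 CPM in Ctrl ALBSF (SD, n = 4 each). The difference of embWPC ALBSF was -1.10 ± 0.50 from Ctrl ALBSF and 1.36 ± 0.56 from Ctrl PMBSF, with adjusted p values of 0.530 and 0.484 by edgeR. Neither contrast called the gene, and the range of the embWPC ALBSF pools, 0.314 to 1.65 CPM, covers most of the distance between the control groups.

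Hba-x, the embryonic alpha-type chain zeta, and Hbb-y, the embryonic beta-type chain epsilon, were near the limit of detection. Hba-x had 0, 3, 0 and 2 counts in embWPC ALBSF, 5, 4, 0 and 4 counts in Ctrl PMBSF and 0, 2, 0 and 1 counts in Ctrl ALBSF. Hbb-y had 0, 1, 0 and 0 counts in embWPC ALBSF, no count in Ctrl PMBSF and 0, 4, 0 and 3 counts in Ctrl ALBSF. In a library with no count, an upper limit of 3 counts allows 0.0869 to 0.105 CPM, so most of these values are at or near that limit. Over the 12 libraries, Hbb-bh1 had 433 counts, Hba-x had 21 and Hbb-y had 8. Over all libraries most embryonic counts came from 1 gene, with Hbb-bh1 at 95.7% of embryonic counts in embWPC ALBSF, 71.0% in Ctrl PMBSF and 96.5% in Ctrl ALBSF, as means of 4 libraries. Ctrl PMBSF ran from 28.6 to 100%, and in its replicate 1 Hbb-bh1 gave 2 of 7 embryonic counts and Hba-x gave 5.

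**Figure D3:**
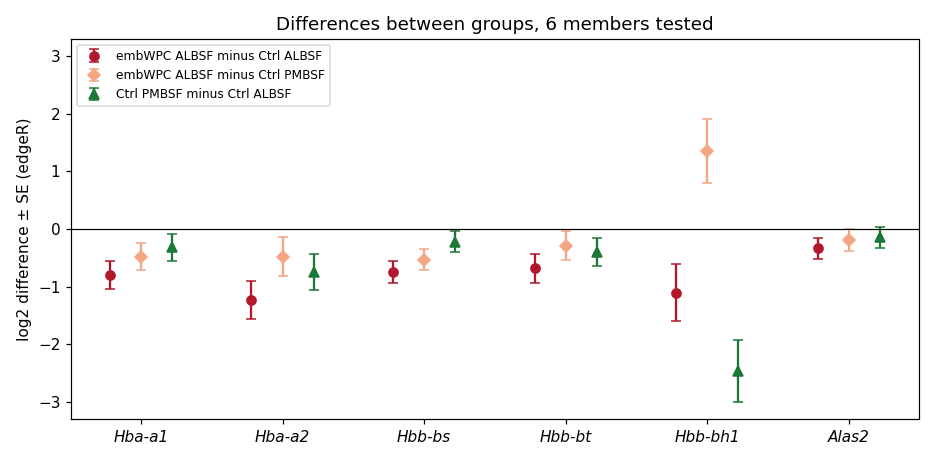
Differences between groups on the log2 scale with their SE, from the edgeR fit of 12 libraries, for the 6 genes tested; circles are embWPC ALBSF minus Ctrl ALBSF, diamonds embWPC ALBSF minus Ctrl PMBSF and triangles Ctrl PMBSF minus Ctrl ALBSF. The adult globins lie below 0 in each contrast, and Hbb-bh1 has the largest value, -2.46, in Ctrl PMBSF minus Ctrl ALBSF.

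The contrast of Ctrl PMBSF with Ctrl ALBSF shares the 4 Ctrl ALBSF libraries with that of embWPC ALBSF. In it, edgeR called 1 of the 6 members tested, Hbb-bh1, against 1.62% of all genes called and 0.811% called lower. DESeq2 and voom also called Hbb-bh1 alone, in fits that called 3.01% and 2.63% of all genes. At an unadjusted p under 0.05 there were 2, Hbb-bh1 and Hba-a2, against 11.8% of all genes. The 6 members had a median difference of -0.36, beside 0.00 over all genes tested. Hba-a1 had a difference of -0.31 ± 0.24, Hbb-bs of -0.22 ± 0.19 and Hba-a2 of -0.75 ± 0.32, with adjusted p values of 0.670, 0.725 and 0.354 by edgeR. For Hbb-bt the value was -0.40 ± 0.25, with an adjusted p of 0.597. With the replicate block, edgeR called Hbb-bt as well, at -0.41 with an adjusted p of 0.0219, in a fit that called 5.04% of all genes. That paired fit gave -0.30 ± 0.090 for Hba-a1, -0.21 ± 0.086 for Hbb-bs and -0.75 ± 0.30 for Hba-a2. Their adjusted p values were 0.0902, 0.209 and 0.194 by edgeR, so they were not called. Of the 6, only Hbb-bh1 had groups that did not overlap, against 1.51% of all genes lower in Ctrl PMBSF. With library totals in place of scaling factors, the median of all genes tested in this contrast moved to 0.10, and the called genes split into 150 higher and 69 lower, beside 142 and 142. The 6 members stayed below 0 there.

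The embryonic to adult ratio followed Hbb-bh1. Embryonic counts were 0.215, 0.218, 0.0551 and 0.181% of adult globin counts in embWPC ALBSF. The Ctrl PMBSF ratios were 0.0256, 0.0562, 0.0789 and 0.0617%, and those of Ctrl ALBSF were 0.163, 0.197, 0.243 and 0.251%. All Ctrl PMBSF libraries lay under all Ctrl ALBSF libraries, while embWPC ALBSF spanned both, with 1 pool in the range of Ctrl PMBSF. The means were 0.167 ± 0.0767% in embWPC ALBSF, 0.0556 ± 0.0222% in Ctrl PMBSF and 0.213 ± 0.0413% in Ctrl ALBSF (SD, n = 4 each). These ratios are sums over the members and carry no test of their own. The lowest, in Ctrl PMBSF replicate 1, rested on 7 embryonic counts, a share of all 7 globins of 0.0256% with an exact 95% binomial interval of 0.0103 to 0.0528%.

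**Figure D4:**
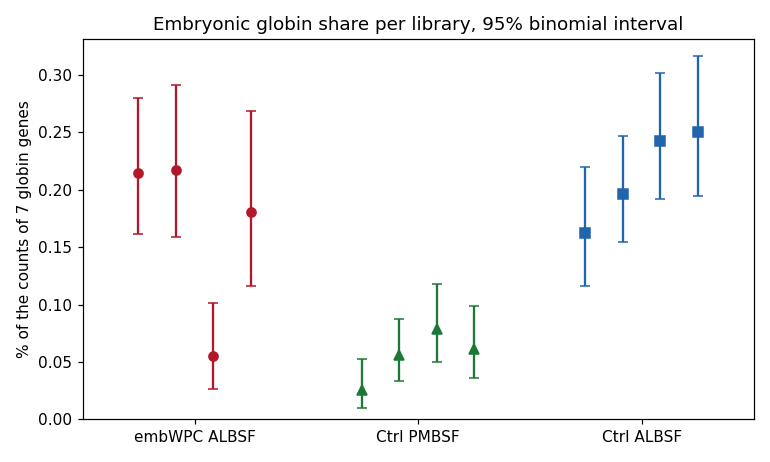
Counts of the 3 embryonic globins as a percentage of the counts of all 7 globins in each library, with the exact 95% binomial (Clopper-Pearson) interval, which covers counting error only; groups are embWPC ALBSF, Ctrl PMBSF and Ctrl ALBSF. The Ctrl PMBSF points lie between 0.0256 and 0.0789% and the Ctrl ALBSF points between 0.162 and 0.25%.

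Within the beta cluster, embryonic counts were 0.375 ± 0.182% of adult counts in embWPC ALBSF, 0.103 ± 0.0695% in Ctrl PMBSF and 0.499 ± 0.0857% in Ctrl ALBSF (SD, n = 4 each). Within the alpha cluster the ratio rested on 0 to 5 embryonic counts per library, with means of 0.0132% in embWPC ALBSF, 0.0200% in Ctrl PMBSF and 0.00382% in Ctrl ALBSF. The order of the control groups was thus opposite in the alpha cluster, at counts of 13 in Ctrl PMBSF and 3 in Ctrl ALBSF over 4 libraries each, and the groups overlapped.

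Hbb-bh1 and the adult globins did not share an order of groups. Adult globins were lowest in embWPC ALBSF, and Hbb-bh1 was lowest in Ctrl PMBSF. In Ctrl PMBSF, the library with 1010.1 CPM of adult globins had 0.448 CPM of Hbb-bh1. In embWPC ALBSF, the library with 651 CPM of adult globins had 1.29 CPM of Hbb-bh1. Over the 12 libraries, Pearson's r of log2 CPM with the summed adult globins was 0.98 for Hba-a1, 0.97 for Hbb-bs, 0.80 for Hbb-bt, 0.78 for Hba-a2, 0.43 for Alas2 and 0.34 for Hbb-bh1. The genes were scaled with the factors of the fit, and the sum by library totals alone. Hba-a1 and Hbb-bs make up most of that sum, and the points share their groups, so these values are descriptions.

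**Figure D5:**
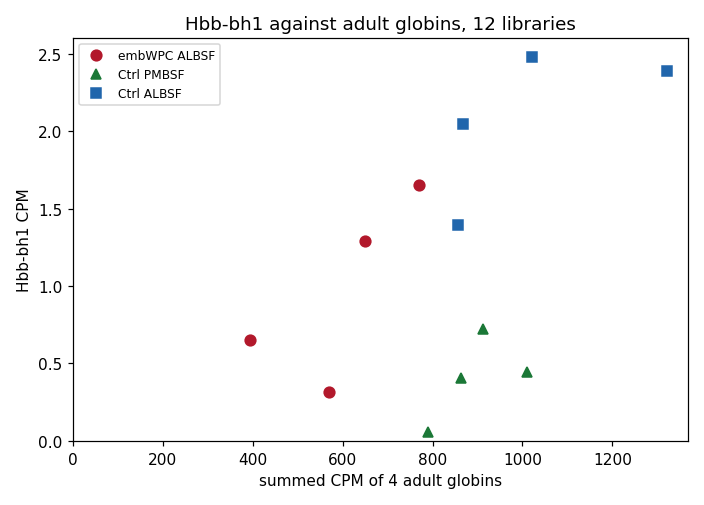
Hbb-bh1 CPM against the summed CPM of the 4 adult globins in each of 12 libraries, on linear axes that start at 0. Ctrl PMBSF pools, 791 to 1010.1 CPM of adult globins, lie under 0.720 CPM of Hbb-bh1 or at it, while Ctrl ALBSF pools lie at 1.39 CPM or above.

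The 8 genes most alike to the summed adult globins by Pearson's r over the 12 libraries were Npc1, Fkbp11, Efcab15, Dab2ip, Uchl4, Ifitm1, Tmem258 and Pigt. Npc1, which encodes a cholesterol transporter of lysosomes, had the highest r, 0.94, and Pigt, a part of the enzyme that attaches GPI anchors, had 0.84. The 9 members were left out of this ranking, as were Gm numbers, Rik names and pseudogenes. None of the 8 is one of the other globins or belongs to the erythroid lists. Npc1 had a difference of -0.51 in embWPC ALBSF against Ctrl ALBSF, with an adjusted p of 0.0707 by edgeR.

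Alas2 had 6.62, 8.10, 4.99 and 8.55 CPM in embWPC ALBSF, 7.16, 7.49, 11.7 and 7.39 CPM in Ctrl PMBSF and 11.6, 9.70, 7.41 and 6.27 CPM in Ctrl ALBSF. The groups overlapped in each contrast. The difference of embWPC ALBSF was -0.33 ± 0.19 from Ctrl ALBSF and -0.19 ± 0.19 from Ctrl PMBSF, with adjusted p values of 0.613 and 0.780 by edgeR. Ctrl PMBSF differed from Ctrl ALBSF by -0.14 ± 0.18, with an adjusted p of 0.830. Its overlap with Apex2 touches each of these values. Slc4a1 had 3, 11, 8 and 10 counts in embWPC ALBSF, 3, 13, 2 and 7 counts in Ctrl PMBSF and 6, 13, 6 and 6 counts in Ctrl ALBSF, and the groups overlapped.

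The red cell genes Gata1, Klf1 and Epb42 were near 0 beside the adult globins. Gata1, the transcription factor that drives red cell development, had 0 to 0.0919 CPM in embWPC ALBSF, 0 to 0.209 CPM in Ctrl PMBSF and 0 to 0.0703 CPM in Ctrl ALBSF. Klf1, an activator of adult beta globin, had 0.0942 to 0.284 CPM in embWPC ALBSF, 0.179 to 0.439 CPM in Ctrl PMBSF and 0.0680 to 0.316 CPM in Ctrl ALBSF. Epb42, a part of the red cell skeleton, reached at most 0.123 CPM. Of the other genes of the globin loci, Hbb-bh0 and Hbb-bh2 had no count in any library. Bcl11a, a repressor of embryonic and fetal globins that neurons also express, had 48.1 to 53.0 CPM in embWPC ALBSF, 48.7 to 59.0 CPM in Ctrl PMBSF and 50.8 to 66.1 CPM in Ctrl ALBSF.

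The lists of heme synthesis, red cell membrane, red cell cytosol and globin regulators held 51 tested genes that are not members. By edgeR's unpaired fit, 0 of the 51 were called in any of the contrasts. With the replicate block, edgeR called 4 in Ctrl PMBSF against Ctrl ALBSF, Gypc, Lmo2, Mkrn1 and Tmcc2, in a fit that called 5.04% of all genes. At an unadjusted p under 0.05 there were 5 in embWPC ALBSF against Ctrl ALBSF, 11 in embWPC ALBSF against Ctrl PMBSF and 8 in Ctrl PMBSF against Ctrl ALBSF, beside 9.22%, 9.47% and 11.8% of all genes in the same order of contrasts. DESeq2 and voom each called 2 in the last of these, Gypc and Lmo2, beside 3.01% and 2.63% of all genes, and 0 in the others. Gypc, a membrane sialoglycoprotein that anchors the red cell skeleton, had a value of 0.82 ± 0.20 in Ctrl PMBSF, at an adjusted p of 0.0539 by edgeR. Lmo2, a partner of the GATA and TAL factors that endothelium also expresses, had a value of -0.53 ± 0.14 there, at an adjusted p of 0.0934. In embWPC ALBSF against Ctrl ALBSF the smallest p of these lists was that of Blvrb, a biliverdin reductase abundant in red cells, at -0.54 ± 0.15 with an adjusted p of 0.256. The 51 had a median difference of -0.04 in that contrast, beside -0.77 for the 6 members. Many of these genes are also expressed in brain cells, so their level does not measure red cells.

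The other globins were called by none of the unpaired tests. Cygb, cytoglobin, had 13.0 to 24.2 CPM in embWPC ALBSF, 13.5 to 18.9 CPM in Ctrl PMBSF and 15.6 to 22.2 CPM in Ctrl ALBSF. Ngb, the neuronal globin, had 1.29 to 3.47 CPM in embWPC ALBSF, 2.09 to 6.95 CPM in Ctrl PMBSF and 2.21 to 3.99 CPM in Ctrl ALBSF. Of the 4 genes of this list that were tested, edgeR, DESeq2 and voom called 0 in each contrast. At an unadjusted p under 0.05 there was 1, Cygb, in each contrast with Ctrl PMBSF. The shares of all genes were 9.47% against embWPC ALBSF and 11.8% against Ctrl ALBSF. The replicate block called Cygb in Ctrl PMBSF against Ctrl ALBSF, in a fit that called 5.04% of all genes.

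Markers of vessels and of other blood cells were measured beside the globins. The 17 endothelial markers summed to 287 to 382 CPM in embWPC ALBSF, 256 to 378 CPM in Ctrl PMBSF and 276 to 385 CPM in Ctrl ALBSF, and all 17 passed the filter. None was called by edgeR, DESeq2 or voom in any contrast. Tek, the angiopoietin receptor, had the smallest p of this list in both contrasts with Ctrl ALBSF, at 0.31 ± 0.16 in embWPC ALBSF and 0.42 ± 0.16 in Ctrl PMBSF, with adjusted p values of 0.597 and 0.295 by edgeR. The median difference of the 17 markers was 0.02 in embWPC ALBSF against Ctrl ALBSF, where the 6 globin and erythroid genes had -0.77. In embWPC ALBSF against Ctrl PMBSF it was 0.23, with 3 of 17 below 0 beside 53.4% of all genes, while the 6 globin and erythroid genes had -0.38. In Ctrl PMBSF against Ctrl ALBSF it was -0.22, with 15 of 17 below 0 beside 49% of all genes. Tek, at 0.42, went against most of its list there. At an unadjusted p under 0.05 there were 0, 5 and 3 of 17 in these contrasts, in the order given, beside 9.22%, 9.47% and 11.8% of all genes. Slco1a4, an organic anion transporter of brain vessels, had the smallest p of this list in embWPC ALBSF against Ctrl PMBSF, at 1.06 ± 0.31 with an adjusted p of 0.347 by edgeR.

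Mural cell markers summed to 79.2 to 119 CPM in embWPC ALBSF, 71.7 to 122 CPM in Ctrl PMBSF and 75.0 to 123 CPM in Ctrl ALBSF. Of the 8 tested, edgeR's unpaired fit, DESeq2 and voom called 0 in any contrast. At an unadjusted p under 0.05 there were 0, 2 and 3, beside 9.22%, 9.47% and 11.8% of all genes. In a fit with the replicate block that called 5.04% of all genes, edgeR called Cspg4 and Rgs5, a pair of pericyte genes, in Ctrl PMBSF against Ctrl ALBSF. In the unpaired fit they had -0.55 ± 0.17 and -0.44 ± 0.16 there, with adjusted p values of 0.146 and 0.234 by edgeR. Platelet and megakaryocyte markers, 9 genes, summed to 3.65 to 5.20 CPM in embWPC ALBSF, 5.11 to 8.72 CPM in Ctrl PMBSF and 5.20 to 5.58 CPM in Ctrl ALBSF. Itga2b, the platelet integrin and the one marker of this list that was tested, gave most of the mean sum, with 3.10 to 4.19 CPM in embWPC ALBSF, 3.22 to 5.94 CPM in Ctrl PMBSF and 4.57 to 5.10 CPM in Ctrl ALBSF. Its embWPC ALBSF libraries all lay under its Ctrl ALBSF libraries, at -0.34 ± 0.17 with an adjusted p of 0.555 by edgeR. Pf4, a platelet chemokine, reached 0.237 CPM in embWPC ALBSF, 4.18 CPM in Ctrl PMBSF and 0.238 CPM in Ctrl ALBSF, and Gp9 and Gp1bb stayed at or under 0.102 CPM. The 12 leukocyte markers summed to 2.24 to 5.87 CPM in embWPC ALBSF, 1.97 to 14.1 CPM in Ctrl PMBSF and 2.46 to 7.41 CPM in Ctrl ALBSF. Of these, S100a9, a granulocyte protein, had the smallest p in both contrasts with Ctrl ALBSF, at 1.24 ± 0.87 in embWPC ALBSF and 1.67 ± 0.85 in Ctrl PMBSF, with adjusted p values of 0.693 and 0.472 by edgeR. Lyz2, the lysozyme of myeloid cells, had it in embWPC ALBSF against Ctrl PMBSF, at -1.01 ± 0.47 with an adjusted p of 0.526. The part of platelets and leukocytes in the globin values was not tested.

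Markers of other cell types differed in value between the groups as well. Meningeal fibroblast markers, 14 of which were tested, summed to 55.5 to 101 CPM in embWPC ALBSF, 88.5 to 141 CPM in Ctrl PMBSF and 76.3 to 99.7 CPM in Ctrl ALBSF. Their median difference was -0.47 in embWPC ALBSF against Ctrl ALBSF, -1.79 in embWPC ALBSF against Ctrl PMBSF and 1.08 in Ctrl PMBSF against Ctrl ALBSF. In these contrasts 14, 13 and 1 of 14 were below 0, beside 52.5%, 53.4% and 49% of all genes, and 1, 10 and 8 had an unadjusted p under 0.05, beside 9.22%, 9.47% and 11.8%. The unpaired edgeR fit called 0 of them. In embWPC ALBSF against Ctrl PMBSF, where adult globins had lower values too, DESeq2 called 6, Aldh1a2, Col1a2, Col3a1, Dcn, Islr and Ogn, beside 0.423% of all genes. Ogn, a small proteoglycan, had -2.27 ± 0.41 there, with an adjusted p of 0.181 by edgeR. In Ctrl PMBSF against Ctrl ALBSF, DESeq2 called Islr and Pdgfra, voom called Ogn, and edgeR with the replicate block called Aldh1a2, Islr, Lum, Ogn and Pdgfra. These fits called 3.01%, 2.63% and 5.04% of all genes in that contrast. Islr had 1.44 ± 0.39 there, with an adjusted p of 0.0997 in the unpaired edgeR fit.

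Microglia and macrophage markers summed to 68.6 to 102 CPM in embWPC ALBSF, 68.0 to 160.0 CPM in Ctrl PMBSF and 75.4 to 138 CPM in Ctrl ALBSF. Of the 11 tested, 11 were below 0 in embWPC ALBSF against Ctrl ALBSF, 9 in embWPC ALBSF against Ctrl PMBSF and 10 in Ctrl PMBSF against Ctrl ALBSF, with medians of -0.46, -0.23 and -0.24. Of all genes, 52.5%, 53.4% and 49% were below 0 in these contrasts. At an unadjusted p under 0.05 there were 1, 2 and 2, beside 9.22%, 9.47% and 11.8% of all genes. The edgeR fits and voom called 0. DESeq2 called Aif1, an actin-binding protein of microglia, in embWPC ALBSF against Ctrl ALBSF, beside 1.03% of all genes. For Aif1 there, edgeR gave -0.72 ± 0.18 and an adjusted p of 0.166. In embWPC ALBSF against Ctrl PMBSF, Aif1 had -0.64 ± 0.18 with an adjusted p of 0.328 by edgeR. Mrc1, a mannose receptor of macrophages, had the smallest p in Ctrl PMBSF against Ctrl ALBSF, at 1.99 ± 0.68 with an adjusted p of 0.211 by edgeR. Choroid plexus markers summed to 32.4 to 44.1 CPM in embWPC ALBSF, 38.7 to 63.4 CPM in Ctrl PMBSF and 30.8 to 131 CPM in Ctrl ALBSF. Of the 6 tested, the medians were -1.04, -0.57 and -0.11, with 2, 1 and 1 at an unadjusted p under 0.05. The shares of all genes were 9.22%, 9.47% and 11.8%. None of the 6 was called by edgeR, DESeq2 or voom. Prlr, the prolactin receptor, had -0.97 ± 0.28 in embWPC ALBSF against Ctrl ALBSF and -0.77 ± 0.28 in embWPC ALBSF against Ctrl PMBSF, with adjusted p values of 0.262 and 0.434 by edgeR. Enpp2, an enzyme that makes lysophosphatidic acid, had 0.34 ± 0.13 in Ctrl PMBSF against Ctrl ALBSF, with an adjusted p of 0.310 by edgeR. The part of these cell types in the globin values was not tested.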

How the data were processed

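The authors deposited raw counts per Ensembl gene for 12 poly-A libraries. The submitters' processing notes name FastQC 0.11.9, STAR 2.7.9a with GRCm39 as the build, SAMtools 1.15, featureCounts from Subread 2.0.1 and Ensembl release 104. The notes also list mm10. Symbols, positions and transcript lengths came from GENCODE mouse release 39, which held 54749 of the 55359 genes and 99.98% of the counts. Counts were fitted in R 4.3.3 with edgeR 4.0.16, with filterByExpr by group, TMM factors, group as the only term and all 12 libraries. DESeq2 1.42.0 and voom of limma 3.58.1 were alternatives. The fit was tested on simulated data. Correlations used log2 CPM with TMM factors and a prior count of 2 for each gene. The summed adult globins entered as log2 of their CPM on library totals, with no prior count. Same-numbered Ctrl PMBSF and Ctrl ALBSF pools deviated together, with correlations of 0.39, 0.198, 0.325 and 0.396, so the numbers pair these groups, and those of embWPC ALBSF were -0.147 to 0.051. No library repeats another, since even the closest pair differed by 14 in chi-square per degree of freedom.

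The rule for naming took all 9 members, the called genes of a list described or, with none, its smallest p in a contrast described, and the 8 genes most alike to the adult globins. Several smallest-p genes of the erythroid lists are left out, and other list genes were named after their values were seen. The members, the lists and this rule were chosen with earlier results of these data known.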

Additional observations from a re-analysis of the deposited data

Results flagged for a closer look

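In 45 groups of 4 values that were screened, 5 had 1 library set far from the other 3 by Dixon's test, and chance gives about 1 in 20. The groups include ratios of the same genes, so they are not independent of each other. Hbb-bt had 11.96 CPM in embWPC ALBSF replicate 4, beside 18.5 to 19.2 CPM in the others. Alas2 had 11.7 CPM in Ctrl PMBSF replicate 3, beside 7.16 to 7.49 CPM. Slc4a1 had 0.457 CPM in Ctrl ALBSF replicate 2, which was also the library with the most adult globin, beside 0.188 to 0.204 CPM. Alas2 counts were 1.35% of adult globin counts in Ctrl ALBSF replicate 1, beside 0.723 to 0.734% in the others. Hbb-y had 0.0315 CPM, 1 count, in embWPC ALBSF replicate 2 and no count in the others. Where the others have no count, any count gives this flag, so the flag of Hbb-y shows nothing more.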

How the results depend on the processing

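No member's difference changed sign in any fit, and 278 kept their side of the threshold, while 4 gained a call and 6 lost one, each of these 6 for Hbb-bh1 with 1 library left out. In embWPC ALBSF against Ctrl ALBSF, edgeR called 11 genes, and 7 with library totals, 121 without the filter, 181 by DESeq2, 78 by voom, 1 with the replicate block and 1 to 22 when 1 library was left out. Members called were 0, 2 without the filter and 1 by DESeq2. In embWPC ALBSF against Ctrl PMBSF, 1 gene was called, 72 without the filter, 74 by DESeq2, 0 with the replicate block and 1 to 3 when 1 library was left out. In Ctrl PMBSF against Ctrl ALBSF, 284 genes were called, 527 by DESeq2, 461 by voom, 857 with the replicate block and 127 to 249 when 1 library was left out. Members called there were 1, 2 with the replicate block and 0 to 1 when 1 library was left out. The embryonic to adult ratio of embWPC ALBSF, Ctrl PMBSF and Ctrl ALBSF was 0.375, 0.103 and 0.499% in the beta cluster alone, and 0.0132, 0.0200 and 0.00382% in the alpha cluster alone. The cause was not tested. Where numbers do not pair the groups, as with embWPC ALBSF, the block has no design behind it. Hbb-bh1 rested on 2 to 79 counts per library, Hba-x and Hbb-y on 0 to 5, which limits what these depths can show.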

Other observations

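By the same measure, chosen after its values were seen, the genes most alike to Hbb-bh1 over the 12 libraries were Sez6, Atg4c and Apaf1, with Pearson's r of 0.92, 0.91 and 0.90. Sez6, a membrane protein of neurons, had a difference of -0.65 in Ctrl PMBSF against Ctrl ALBSF, with an adjusted p of 0.00498 by edgeR. Adgrf5, an adhesion receptor of endothelium and lung epithelium, was the seventh, with an r of 0.88 and a difference of -0.69 in Ctrl PMBSF, at an adjusted p of 0.0459. These values come from libraries that share groups and scaling and are descriptions.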
